A study of Mus musculus with 6 samples.

Results

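The Toll-like receptor genes Tlr1, Tlr2, Tlr3, Tlr4, Tlr5, Tlr6, Tlr7 and Tlr9, the co-receptor gene Cd14 and the adaptor gene Myd88 were followed in liver endothelial cells (ECs) of young and aged mice. They were taken by name from the deposited tables and make up 10 of 24421 genes. All 6 samples came from wild-type C57BL/6J mice, female by the study's methods. Liver ECs carrying CD31, an endothelial surface protein, and lacking CD45, a leukocyte surface protein, were sorted by flow cytometry from 3 young mouse samples at 10 weeks of age and from 3 aged samples at 127, 131 and 136 weeks, and 50000 cells per sample were sequenced as bulk RNA. The study's methods describe the samples of each age as independently collected, and p-values measure the spread between these samples only.

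Toll-like receptors are transmembrane proteins that recognize molecules of microbes and of damaged cells. Cd14 encodes a surface and soluble protein that takes lipopolysaccharide of Gram-negative bacteria from the plasma protein LBP and hands it to the complex of TLR4 and MD-2. MyD88 couples all mouse Toll-like receptors except TLR3, as well as the receptors of the IL-1 family, to the IRAK kinases and NF-κB. Liver ECs line sinusoids that receive blood from the gut through the portal vein, and thus meet bacterial products continuously.

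The libraries held 23001556 to 31651817 counts. Levels are given as CPM, the counts scaled to the library size with TMM factors. On library size alone, without these factors, 3 counts stood for 0.0948 to 0.130 CPM, a floor that covers counting error only. The samples formed a pair of library clusters that crossed age. The transcripts Lars2 and Rn45s took 1.29% of the counts in young sample 3 and 0.960% in the 127-week sample, against 4.68 to 5.53% in the other 4. The summed CPM of 5 endothelial markers was 6734 to 7232 in young and 4602 to 6156 in aged ECs. Of these, Kdr (mean CPM 3507 in young and 2237 in aged) and Tek (1537 and 1177) were lower without overlap. Pecam1 (1444 and 1459), Cdh5 and Erg overlapped between the ages. The summed CPM of 6 sinusoidal markers was 12402 to 13797 in young and 5362 to 8679 in aged ECs. Each sum had an exact permutation p of 0.1, the smallest that 3 samples against 3 allow. Stab1, Stab2, Clec4g and Fcgr2b were lower without overlap, and Flt4 was lower with overlap. Lyve1 had a higher mean in aged ECs (797 against 533 CPM) with overlap. Stab2 and Clec4g are in the study's own tables of these samples. In bulk samples, fewer cells of a type and less RNA per cell cannot be told apart.

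Promoter sequence was available from RefSeq (build GRCm38.p6, 250 bases before to 50 after the transcription start) for 7 of the 10 genes, with 9 entries. They are given on the gene's strand for the 3 among the 5 abundant genes described below that have an entry. NF-κB and interferon-regulated factors act downstream of these receptors, and their textbook motifs were therefore searched on both strands. The capitals mark matches to the kappa B consensus in Tlr2 (chr3:83841749-83841808, minus strand) and Tlr3 (chr8:45410561-45410620, minus strand), and to the core of the interferon-stimulated response element, GAAA, any 2 bases and GAAA again, in Myd88 (chr9:119340019-119340098, minus strand).
Tlr2: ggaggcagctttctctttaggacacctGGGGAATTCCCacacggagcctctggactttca
Tlr3: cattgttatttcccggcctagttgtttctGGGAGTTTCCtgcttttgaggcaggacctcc
Myd88: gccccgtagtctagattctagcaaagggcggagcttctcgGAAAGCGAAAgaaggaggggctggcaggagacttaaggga
The capitals in Tlr2 hold a pair of overlapping kappa B matches starting at positions -173 and -172 relative to the start site, and another match in the same entry, outside the stretch shown, spanned -8 to 2. A kappa B match was present in 2 of the 9 entries and in 8.46% of all 32851 promoters of the same length. The response element core was present in 2 of the 9 entries, those of Myd88 and 1 of the entries of Tlr6, and in 3.44% of all promoters. The gamma-activated site TTCNNNGAA was present in 3 of the 9 entries and in 8.3% of all promoters, and in Myd88 it started at -46 and overlapped the capitals. These matches describe letters in the windows and were not tested as binding sites. Bases just after the start site were found in an annotated coding transcript of the gene for the Tlr2 and Myd88 entries, but not for the Tlr3 entry.

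The genes were separated into abundant and scarce transcripts, here compared as FPKM, which is per transcript length. Mean FPKM over the 6 samples was 69.2 for Myd88, 25.7 for Tlr2, 15.6 for Cd14, 14.7 for Tlr3 and 10.3 for Tlr4. The other 5 genes had means below 1, from 0.583 for Tlr6 and 0.153 for Tlr5 to 0.126 for Tlr7, 0.0894 for Tlr1 and 0.0171 for Tlr9. Liver ECs thus carried transcripts of Tlr4, Tlr2 and Tlr3, whose products recognize lipopolysaccharide, lipopeptides and double-stranded RNA. They carried few of the receptors for flagellin, single-stranded RNA and CpG DNA, and few of Tlr1 and Tlr6, the partners of TLR2 in lipopeptide recognition.

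**Figure D1:**
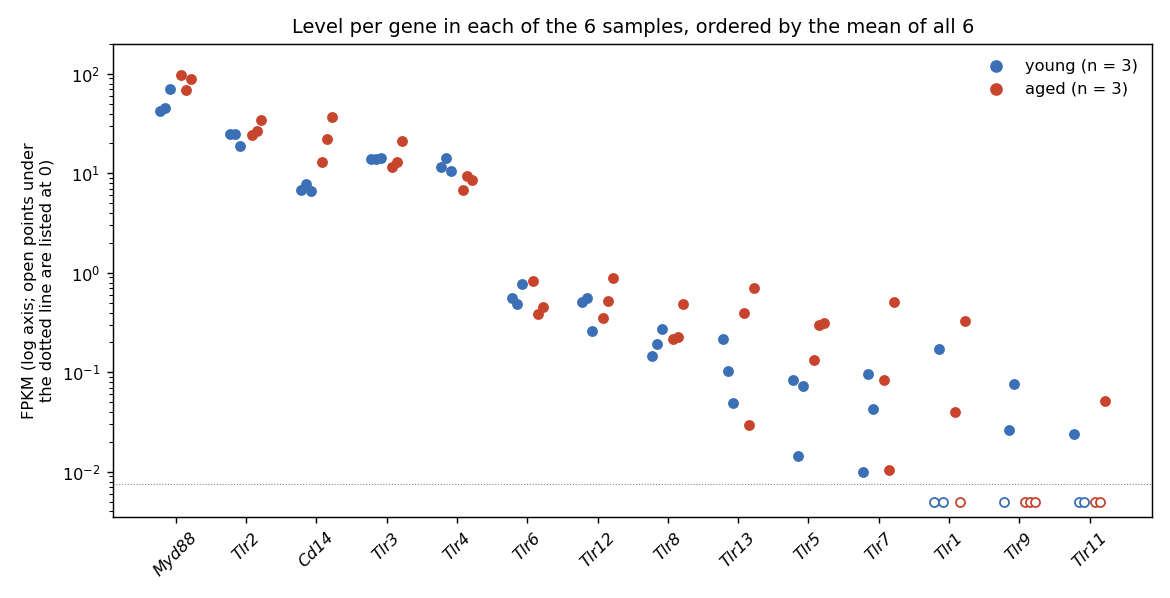
FPKM of Cd14, Myd88 and the 12 mouse Toll-like receptor genes in each of the 6 samples on a log axis, ordered by the mean of all samples (blue, young; red, aged; open points, listed at 0). Myd88, Tlr2, Cd14, Tlr3 and Tlr4 lie above 6 FPKM in every sample, and all others lie below 1 FPKM in every sample.

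The order of the abundant genes differed between the ages at the place of Cd14. In young ECs, mean FPKM ran from Myd88 (53.0) through Tlr2 (22.9), Tlr3 (14.2) and Tlr4 (12.2) to Cd14 (7.14), and of these neighbours Tlr3 and Tlr4 overlapped in their sample values. In aged ECs the order was Myd88 (85.5), Tlr2 (28.4), Cd14 (24.1), Tlr3 (15.2) and Tlr4 (8.28), and Cd14 overlapped both of its neighbours. Cd14 was therefore below Tlr4 in all young samples and above it in all aged samples.

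Of the 10 genes, 9 could be compared between the ages, since Tlr9 did not reach 0.5 CPM in any sample. Tlr1, Tlr5 and Tlr7 reached it only in aged samples, so that passing the filter required them to be high there, and counts that include them are descriptions only. Of the 9, 7 were higher in aged ECs and 2 lower, and of the 6 genes that reached 0.5 CPM in at least 3 samples, 4 were higher and 2 lower. Of all genes tested, 51.1% were higher. The median log2 fold change was 0.70 over the 9 and 0.22 over these 6, against 0.0098 over all 14612 genes tested. The median over the genes tested was 0.15 without the 136-week sample and -0.16 with a term for leukocyte markers. By edgeR's quasi-likelihood test with Benjamini-Hochberg adjustment (adjusted p below 0.05 and log2 fold change beyond 1), 0 of the 9 passed, as did 0% of all genes. At an unadjusted p below 0.05, 3 were higher, Cd14, Tlr5 and Myd88, or 2 without Tlr5 (8.32% of all genes were), and 1 was lower, Tlr4 (4.32% of all genes were). With each sample left out in turn, the unadjusted edgeR p stayed at or below 0.00779 for Cd14. It exceeded 0.05 for Tlr4 without young sample 2 (0.0879) or the 127-week sample (0.0634), for Myd88 without young sample 1 (0.0701), young sample 2 (0.0717) or the 127-week sample (0.0612), and for Tlr5 without any 1 sample other than the 127-week sample (highest 0.0916). DESeq2 called 1 of the 9, Cd14, as higher, and 2.7% of all genes. Young and aged values did not overlap for 2 genes higher in aged ECs, Cd14 and Tlr5, and for 1 lower, Tlr4, against 9.62% and 8.33% of all genes. Without Tlr5, 1 gene in each direction remained.

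**Figure D2:**
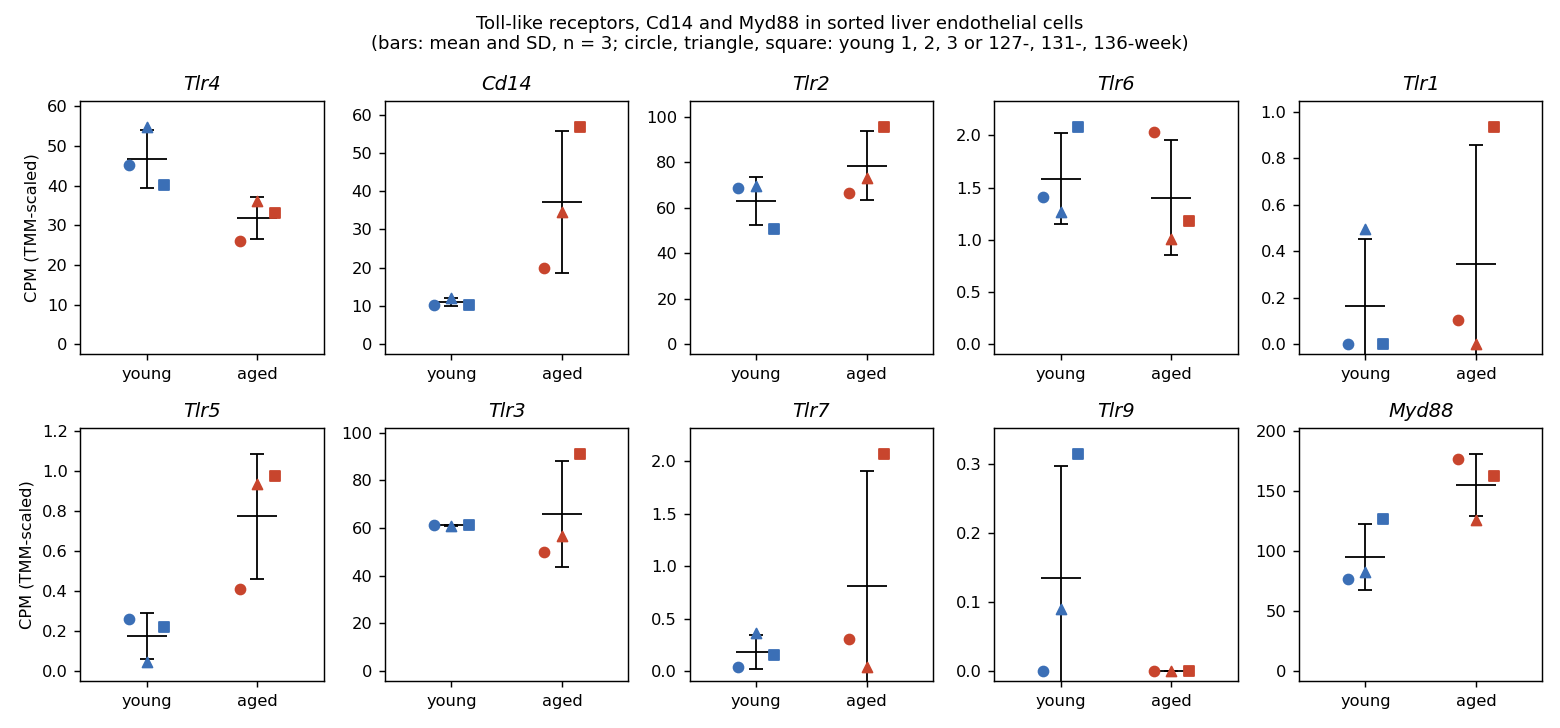
TMM-scaled CPM of the 10 genes in 3 young (blue) and 3 aged (red) samples, with a separate linear axis for each gene; horizontal bars and whiskers are mean and SD (n = 3), and circle, triangle and square are young 1, 2 and 3 or the 127-, 131- and 136-week samples. All aged points of Cd14 and Tlr5 lie above the young points, all aged points of Tlr4 lie below them, and the other 7 genes overlap between the ages.

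Cd14 (chromosome 18, 36884728 to 36886390 of mm9, minus strand) had the smallest p of the 9 genes tested. Its CPM was 10.4, 12.1 and 10.3 in young samples 1, 2 and 3. It was 20.0 at 127 weeks, 34.6 at 131 weeks and 56.8 at 136 weeks. The young samples lay close together, whereas the aged samples were all higher and spread widely. The means were 10.9 ± 1.04 and 37.1 ± 18.5 (SD, n = 3 each), a 3.39-fold difference with a log2 fold change of 1.76 ± 0.36 (SE, unadjusted p = 0.00158, adjusted p = 0.203 by edgeR's quasi-likelihood test). The DESeq2 adjusted p was 0.000654, and over all alternatives the adjusted p ran from 0.000654 to 0.625. On the log2(CPM + 1) scale, the 127-week sample exceeded young sample 3, its partner in library cluster, by 0.90, and the 2 aged samples of the other cluster exceeded the young ones there by 1.89 on average. The difference was thus present within both library clusters, and the fold change was 1.32 on the log2 scale without the 136-week sample. Of the 10 genes, Cd14 alone is listed in the study's own tables of genes that differ between these samples, so its direction is not independent of that selection.

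Tlr4 (chromosome 4, 66488618 to 66591318 of mm9, plus strand), the signalling receptor for lipopolysaccharide, lay in the opposite direction. Its CPM was 45.1, 54.8 and 40.2 in the young samples and 25.9, 36.2 and 33.2 in the 127-, 131- and 136-week samples. Every aged sample was below every young sample, with the 127-week sample lowest. The means were 46.7 ± 7.41 and 31.8 ± 5.27 (SD), with a log2 fold change of -0.56 ± 0.19 (SE, unadjusted p = 0.0200, adjusted p = 0.325 by edgeR's quasi-likelihood test). Within the library clusters the log2 differences were -0.61 and -0.51, and all 18 alternatives gave the same direction.

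Ly96 and Lbp, whose products act with CD14 and TLR4, lay in opposite directions, and neither passed the test. Ly96, which encodes MD-2, the lipopolysaccharide-binding partner of TLR4, had CPM values of 55.2, 66.1 and 55.4 in young and 37.7, 56.3 and 37.9 in aged samples, with a log2 fold change of -0.42 ± 0.20 (SE, adjusted p = 0.434). Its 127- and 136-week samples were below all young samples, and its 131-week sample was within the young range. Lbp, which encodes the plasma protein that delivers lipopolysaccharide to CD14, had a log2 fold change of 0.35 ± 0.18 (SE, adjusted p = 0.502) with overlapping ages. Of the 10 genes for ligand transfer, co-receptors and receptor chaperones, 9 were tested, of which 4 were higher and 5 lower in aged ECs, and 0 reached an unadjusted p below 0.05.

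The proportion of Cd14 to the genes of the TLR4 complex did not overlap between the ages. The ratio of Cd14 to Tlr4 in FPKM was 0.581, 0.553 and 0.630 in young samples and 1.94, 2.35 and 4.29 in the 127-, 131- and 136-week samples. The ratio of Cd14 to Ly96 ran from 0.0496 to 0.0515 in young samples and was 0.146, 0.166 and 0.408 in the aged ones. Young samples were nearly equal in both ratios, every aged sample was above them, and the 136-week sample was highest. Both differences had an exact permutation p of 0.1, the smallest this design allows, and the ratios were chosen after the values had been seen. Because Cd14 was higher and Tlr4 lower without overlap, their ratio could not overlap either. Its p therefore restates the values of the separate genes and adds no evidence to them.

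Tlr2 (chromosome 3, 83640195 to 83645689 of mm9, minus strand) pairs with TLR1 or TLR6 to recognize bacterial lipopeptides and was the most abundant receptor of the family. Its CPM was 68.9, 69.5 and 50.8 in young and 66.5, 73.3 and 95.6 in aged samples. The ages overlapped, since the 127-week sample was below young samples 1 and 2, and the log2 fold change was 0.32 ± 0.20 (SE, adjusted p = 0.568). Within each library cluster the aged values were above the young ones, by 0.38 and 0.27 on the log2(CPM + 1) scale.

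The partners Tlr1 and Tlr6 are neighbours on chromosome 5 (65316050 to 65324000 and 65344345 to 65351287 of mm9, both minus strand), with 20344 bases between them. They share 340 stretches of 75 bases, the read length, which is 13.19% of those in Tlr1 and 13.44% of those in Tlr6, so the division of reads between them is uncertain. The other 8 genes share 0 such stretches with the coding transcripts of any other gene. Tlr6 counts were 38, 28 and 66 in young and 59, 26 and 29 in aged samples, with a log2 fold change of -0.17 ± 0.48 (SE, adjusted p = 0.932). The ages overlapped, and the highest value of each age was in the cluster with little Lars2 and Rn45s. Tlr1 counts were 0, 11 and 0 in young and 3, 0 and 23 in aged samples, so 4 of the 6 samples were at or below the floor of 3 counts, and it entered the test only through the 136-week sample (log2 fold change 1.11 ± 1.87, SE, adjusted p = 0.872).

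Tlr5 (chromosome 1, 184884919 to 184906175 of mm9, plus strand), the receptor for bacterial flagellin, was scarce. Its counts were 7, 1 and 7 in young and 12, 24 and 24 in the 127-, 131- and 136-week samples. Every aged sample was above every young sample, but the gene reached 0.5 CPM only in the 131- and 136-week samples, young sample 2 was under the floor of 3 counts and the 127-week sample exceeded the young ones by few reads. The log2 fold change was 2.08 ± 0.81 (SE, unadjusted p = 0.0363, adjusted p = 0.368 by edgeR's quasi-likelihood test), and the gene could not be tested when 0.5 CPM was required in 3 samples.

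Tlr3 (chromosome 8, 46481019 to 46495962 of mm9, minus strand) recognizes double-stranded RNA in endosomes and signals through TRIF, encoded by Ticam1. Its CPM was 61.4, 60.7 and 61.0 in young and 49.9, 56.8 and 91.1 in the 127-, 131- and 136-week samples. The young samples were almost equal, whereas the 127- and 131-week samples were below them and the 136-week sample above. The log2 fold change was 0.11 ± 0.23 (SE, adjusted p = 0.901) and -0.19 without the 136-week sample. Ticam1 had a log2 fold change of 0.20 ± 0.19 (SE, adjusted p = 0.738).

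Tlr7 and Tlr9, endosomal receptors for single-stranded RNA and CpG DNA, were near the floor. Tlr7 (chromosome X, 163742861 to 163768490 of mm9, minus strand) had counts of 1, 8 and 5 in young and 9, 1 and 51 in aged samples, and entered the test only through the 136-week sample (log2 fold change 2.12 ± 1.36, SE, adjusted p = 0.581). Tlr9 (chromosome 9, 106124929 to 106129207 of mm9, plus strand) had counts of 0, 2 and 10 in young and 0 in each aged sample. At the depth of the aged samples a count of 0 allows up to 0.120 CPM on library size alone, and most of the Tlr9 reads came from young sample 3.

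Myd88 (chromosome 9, 119245052 to 119250529 of mm9, minus strand) was the most abundant of the 10 genes in every sample. Its CPM was 76.8, 82.2 and 126.9 in young and 176.5, 126.0 and 162.1 in the 127-, 131- and 136-week samples. The ages touched only where the 131-week sample was just below young sample 3. The means were 95.3 ± 27.5 and 154.8 ± 26.0 (SD), with a log2 fold change of 0.70 ± 0.23 (SE, unadjusted p = 0.0192, adjusted p = 0.324 by edgeR's quasi-likelihood test). Young sample 3 and the 127-week sample, which had little Lars2 and Rn45s, were each the highest of their age. Within the clusters the ages did not overlap, with differences of 0.47 and 0.84 on the log2(CPM + 1) scale, and with a term for the cluster the unadjusted p was 0.00273 (adjusted p = 0.182). The exons of Myd88 overlap those of the antisense gene Acaa1a by 67 of 2576 bases (2.6%), where reads cannot be told apart because the library kit does not mark strand. Acaa1a had CPM values of 59.6, 59.7 and 70.7 in young and 65.2, 60.4 and 51.9 in aged samples.

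Counted within the library clusters, 4 of the 9 genes were higher in aged ECs without overlap and 2 were lower, against 16.9% and 16.3% of all genes, with Tlr5 among the 4. The genes added by this count were Myd88, Tlr2 and Tlr6.

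The make-up of Toll-like receptor transcripts was then expressed as each gene's share of the summed FPKM of 12 receptors. Tlr2, Tlr3 and Tlr4 together held 94.5 to 97.1% of the sum in every sample. The share of Tlr4 was 22.4, 25.9 and 23.6% in young and 15.2, 18.7 and 12.7% in aged samples, or 23.9 ± 1.79% against 15.5 ± 3.03% (SD, n = 3; exact permutation p = 0.1, the smallest possible). The share of Tlr2 was 47.7, 45.6 and 41.4% in young and 54.2, 52.5 and 50.8% in aged samples (exact permutation p = 0.1). The shares of Tlr2 and Tlr4 thus did not overlap between the ages, in opposite directions, whereas those of Tlr3 overlapped, at 25.5 to 31.7% and 25.8 to 31.0% (exact permutation p = 0.7). The summed FPKM itself was 52.2, 55.2 and 45.4 in young and 44.7, 50.4 and 67.8 in aged samples (exact permutation p = 0.9). These shares were chosen after the values had been seen.

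**Figure D3:**
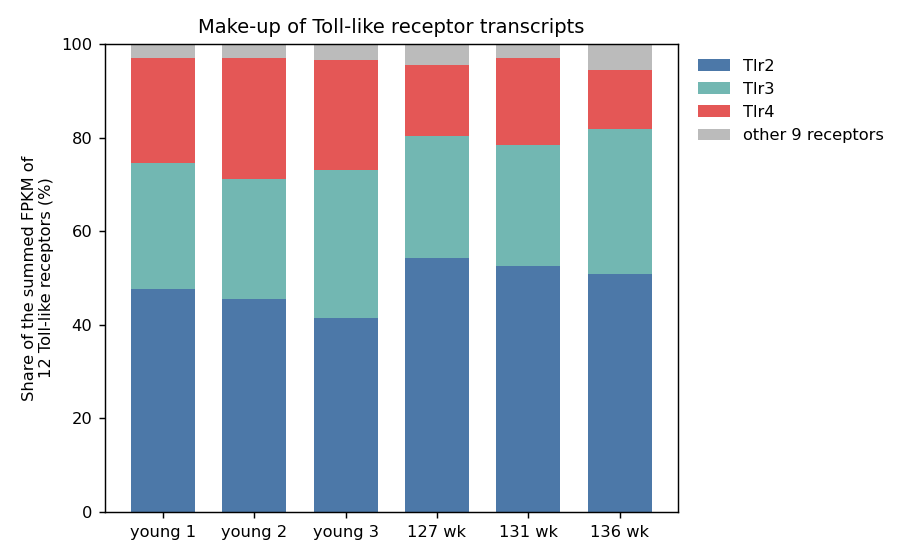
Share of the summed FPKM of 12 mouse Toll-like receptor genes taken by Tlr2, Tlr3, Tlr4 and the other 9 genes (percent, stacked from 0 to 100) in each of the 6 samples. Tlr4 takes 22.4 to 25.9% in young and 12.7 to 18.7% in aged samples, and Tlr2 takes 41.4 to 47.7% and 50.8 to 54.2%.

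Leukocyte markers were examined beside these values, because monocytes and macrophages also express Cd14 and Toll-like receptors and the sort removed CD45-positive cells. All 6 pan-leukocyte markers had higher means in aged ECs, and their summed CPM was 101, 100.2 and 97.1 in young and 103, 99.4 and 330 in the 127-, 131- and 136-week samples (exact permutation p = 0.3). All 5 monocyte markers had higher means as well, with sums of 32.8, 16.8 and 32.7 in young and 111, 20.9 and 355 in aged samples (exact permutation p = 0.3). Of 8 Kupffer cell and macrophage markers 6 were higher, with sums of 51.9, 33.2 and 62.4 in young and 98.2, 12.6 and 159.7 in aged samples (exact permutation p = 0.5). These 3 sums were thus highest in the 136-week sample and above the young range in the 127-week sample. In the 131-week sample the pan-leukocyte and monocyte sums were within the young range and the Kupffer cell sum was below it. Lcp1 alone made up most of the pan-leukocyte sum in young ECs, with CPM values of 79.3, 86.9 and 81.1, against 59.6, 83.7 and 156 in aged samples.

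The other leukocyte lists were low. Summed CPM of 5 neutrophil markers ran from 3.66 to 6.70 in young and from 6.77 to 36.1 in aged samples. These sums did not overlap (exact permutation p = 0.1), and the 131-week sample, at 6.77, was just above the young range. Sums ran from 0.158 to 0.677 and 0.233 to 18.2 for 5 T and NK cell markers (exact permutation p = 0.3). For 4 dendritic cell markers they ran from 0.226 to 2.59 and 1.67 to 8.33 (exact permutation p = 0.4). Ptprc, which encodes CD45, had CPM values of 1.56, 1.17 and 1.70 in young and 7.57, 1.28 and 25.6 in aged samples. In the 131-week sample, Timd4 had a count of 0 and the other 7 Kupffer cell and macrophage markers had 1 to 87 counts. Cd3d, Cd3g and Klrb1c had a count of 0 there, as each did in at least 1 young sample, while Cd3e and Nkg7 had 3 counts each. Of the other classes, the summed CPM of 5 hepatocyte markers ran from 106.6 to 217 in young and from 61.9 to 82.9 in aged samples without overlap (exact permutation p = 0.1). It overlapped for 5 stellate and mural markers (100.5 to 362 and 174 to 628, exact permutation p = 0.4) and for 4 cholangiocyte markers (7.29 to 24.0 and 20.2 to 30.8, exact permutation p = 0.2). A term for the pan-leukocyte markers, the mean of their log2(CPM + 1) values rather than their summed CPM, was added to the fit. With this term, the log2 fold change was 1.35 for Cd14 (unadjusted p = 0.00741, adjusted p = 0.514 by edgeR's quasi-likelihood test) and -0.53 for Tlr4 (unadjusted p = 0.0728, adjusted p = 0.890). For Myd88 it was 0.59 (unadjusted p = 0.0881, adjusted p = 0.903), while those of Tlr1, Tlr3 and Tlr7 changed sign to -2.61, -0.25 and -1.17. The part of leukocyte RNA in the values of the 127- and 136-week samples was not tested further.

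**Figure D4:**
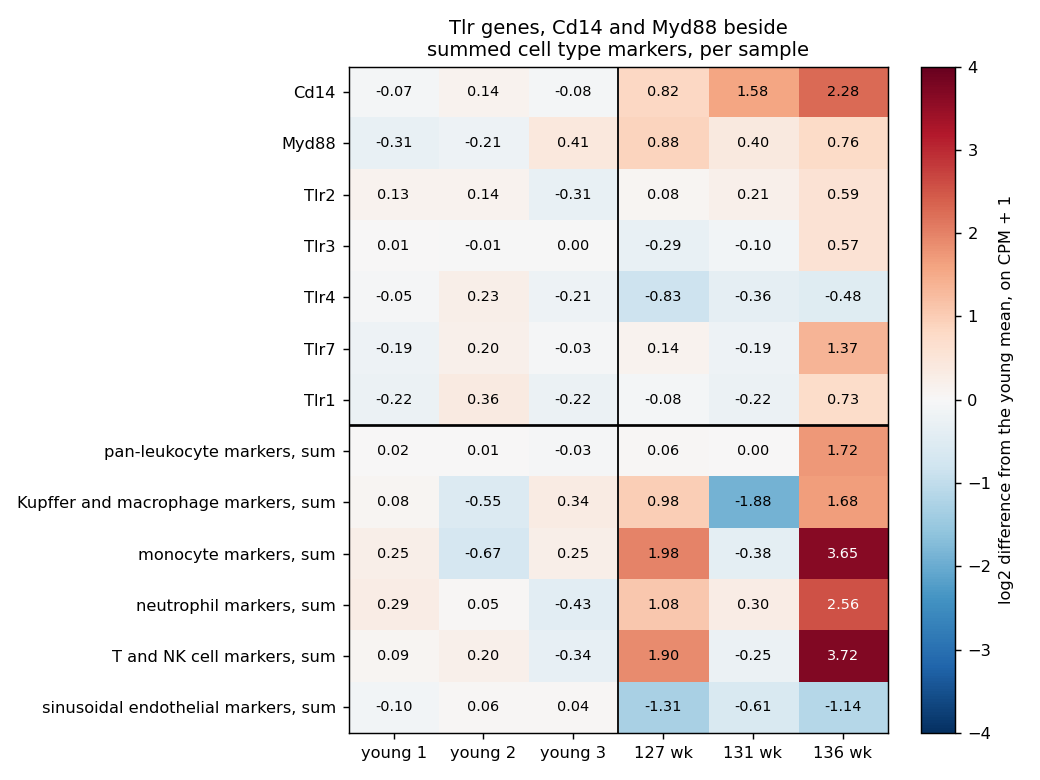
Log2 difference of each sample from the young mean, on CPM + 1, for 7 of the genes (above the line) and for the summed markers of 5 leukocyte classes and of sinusoidal endothelium (below it); red is higher and blue lower than the young mean. Cd14 is at 0.82, 1.58 and 2.28 in the 127-, 131- and 136-week samples, while the monocyte sum is at 1.98, -0.38 and 3.65.

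Downstream of the receptors, lists of signalling genes had medians of 0.041 to 0.26 on the log2 scale, against 0.0098 for all genes. The inflammatory targets had a median of 1.85. Of 23 adaptors, kinases and ligases, 17 were higher in aged ECs and 6 lower (median 0.12), where 51.1% of all genes were higher. At an unadjusted p below 0.05, 2 were higher, Pik3ap1 and Ikbke, a share near the 8.32% of all genes. Pik3ap1, an adaptor between Toll-like receptors and phosphoinositide 3-kinase, had a log2 fold change of 1.90 ± 0.53 (SE, adjusted p = 0.256) without overlap and is in the study's own tables of these samples. Ikbke, a kinase of the interferon branch, had one of 2.22 (adjusted p = 0.345) with overlapping ages. Of 7 transcription factors, 5 were higher (median 0.26). At an unadjusted p below 0.05, 1 was higher, Irf5 (8.32% of all genes were). Its log2 fold change was 1.86 (adjusted p = 0.383), with overlapping ages. Ikbke and Irf5 were named after their values had been seen.

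Negative regulators divided, with 7 higher and 6 lower of the 13 tested and a median of 0.041. Tnfaip3, encoding the deubiquitinase A20 that limits NF-κB, had CPM values of 81.0 ± 20.1 in young and 407 ± 273 in aged ECs (log2 fold change 2.33 ± 0.46, SE, adjusted p = 0.193). Nfkbia, encoding the NF-κB inhibitor IκBα, was higher by 0.82 on the log2 scale (SE 0.27; adjusted p = 0.314), and Peli1, a ubiquitin ligase acting on IRAK proteins, by 0.61 (SE 0.17; adjusted p = 0.256). These 3 genes were higher without overlap between the ages, as were 9.62% of all genes. The list assigned Peli1 to the negative regulators, and the direction of its effect on signalling was not examined. Dusp1, encoding a phosphatase of MAP kinases, was lower without overlap (8.33% of all genes were), with mean CPM at 5219 ± 33.4 (SD) in young and 3916 ± 193 in aged samples, a log2 fold change of -0.41 ± 0.18 (SE) and an adjusted p of 0.410 by edgeR and 0.0140 by DESeq2. Dusp1 was named after its values had been seen. Irak3, an inhibitory member of the IRAK family, had a log2 fold change of -0.07 ± 0.17 (SE, adjusted p = 0.910).

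Of 16 genes known to be induced by lipopolysaccharide in endothelium, all 16 were higher in aged ECs with an unadjusted p below 0.05 (8.32% of all genes were), and 14 (9.62% of all genes) did not overlap between the ages, the exceptions being Lcn2 and Cxcl10. Their median log2 fold change was 1.85, 0 passed edgeR's adjusted threshold and DESeq2 called 13 (2.7% of all genes were). Of the 16, 8 are in the study's own tables of these samples, among them Sele, Selp and Icam1, so the count is not independent evidence of direction, and Tnfaip3 and Nfkbia are counted among the negative regulators too. Log2 fold changes of those that did not overlap ran from 0.82 for Nfkbia through 1.21 for Vcam1, 1.53 for Cxcl1, 1.78 for Cxcl2 and 1.93 for F3 to 2.75 for Ccl2, 2.93 for Il6, 4.01 for Ptgs2, 4.09 for Csf3 and 5.15 for Ccl5. Ccl5 reached 0.5 CPM only in aged samples, with values of 4.40, 0.545 and 22.9 at 127, 131 and 136 weeks, beside which Nkg7, of the T and NK cell markers, had 2.44, 0.117 and 10.5, and the part of those cells in its values was not tested. These genes also respond to IL-1, TNF and other signals, and the 136-week sample was highest for 15 of the 16 (25.7% of all genes). The count was 14 to 16 when each sample was left out in turn and 15 within the library clusters, both computed after the values had been seen.

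**Figure D5:**
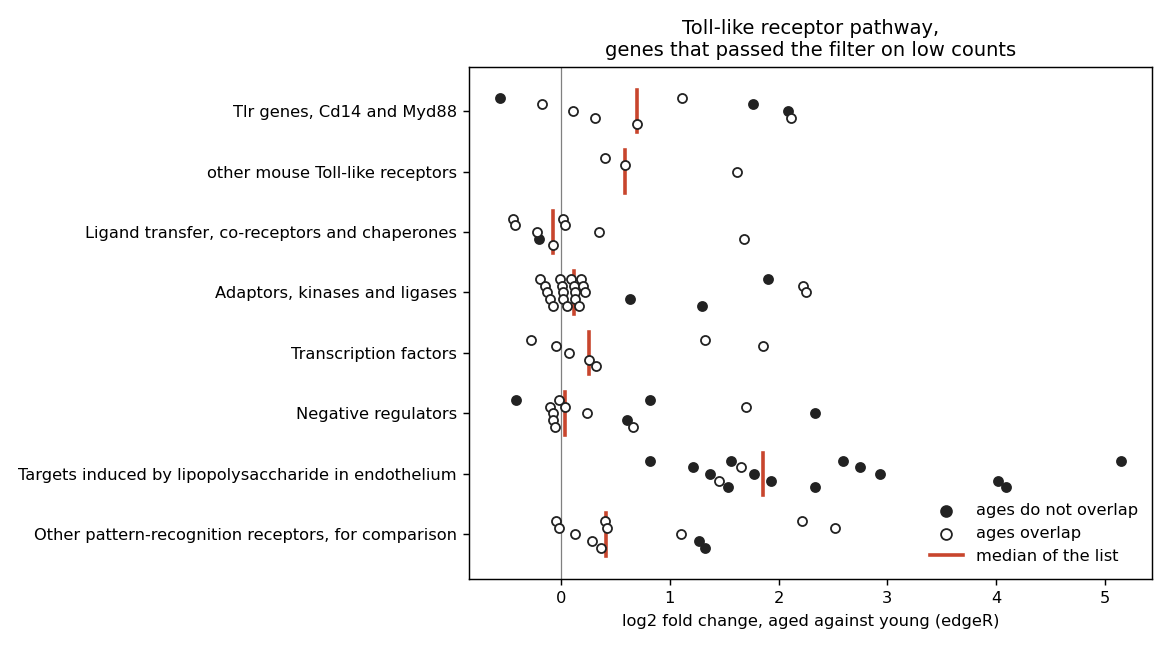
Log2 fold change, aged against young, from edgeR for each gene that passed the filter on low counts, for the 10 genes and 7 lists of the pathway; filled points mark genes whose ages do not overlap, open points those that overlap, and red bars list medians. The lipopolysaccharide-induced targets lie between 0.82 and 5.15 with a median of 1.85, while the medians of adaptors, transcription factors and negative regulators lie between 0.041 and 0.26.

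The genes whose profile over the 6 samples was closest to that of Cd14, Myd88 and Tlr4 were sought among tested genes with a mean of at least 5 CPM, by the root mean square difference of centred log2(CPM + 1) values. For Cd14 they were Gprc5a (0.116), Slc25a25 (0.166) and Nr4a3 (0.168). For Myd88 they were Sox13 (0.0896), Msantd2 (0.102) and Lck (0.105). For Tlr4 they were 1700020I14Rik (0.0691), Tnfaip1 (0.0700) and Plod1 (0.0868). Gprc5a, the nearest to Cd14, had CPM values of 17.6, 20.0 and 15.6 in young and 34.2, 49.9 and 76.0 in the 127-, 131- and 136-week samples. These lay in the same order as for Cd14, which follows from the choice by profile, and each of these ages is 1 sample.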

How the data were processed

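Reads (75-base, single-end, TruSeq v2 libraries) were mapped by the authors to mm9 with TopHat2 2.1.0 after base calling with CASAVA 1.8.2. The authors deposited whole-number read counts for 24421 genes and FPKM values from Cuffnorm 2.2.1 for 24346 genes. The counting program, its annotation and its use of strand are not given in the sources used here. The 14612 genes reaching 0.5 CPM in 1 or more samples were scaled by TMM, and aged were compared with young samples by edgeR's quasi-likelihood test (version 4.0.16 under R 4.3.3, p-values adjusted by Benjamini-Hochberg). SEs were taken as the fold change (log2) over the root of F. FPKM served for levels, ratios and shares. For sums, ratios and shares, exact permutation tests (two-sided) were used. Alternatives used DESeq2 1.42.0, limma 3.58.1 (voom, and log2 FPKM with a pseudocount of 0.1 or 1), other filters and scalings, terms for library cluster or leukocyte markers, and removal of each sample in turn. Only the main edgeR fit was also run on simulated counts, and the alternatives were not. Samples of 1 age differed by more than counting noise. The chi-square per degree of freedom was 20.5 between young samples 1 and 2, and 149 to 193 for the other pairs of 1 age.

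The genes and lists were chosen with earlier results of these data known. Named were all 10 genes, list genes without overlap and with an unadjusted p below 0.05, and Ly96, Lbp, Ticam1, Irak3 and Tnfaip3. Other list genes (Ikbke, Irf5, Dusp1, Lcn2, Cxcl10, Zbp1, Clec7a, Tmem173 and the other Toll-like receptors) were named after their values had been seen. Nearest profiles were sought for the 3 genes with the largest fold change among those with a mean of at least 5 CPM. The tables of 32851 promoters (GRCm38.p6) and the gene annotation (mm9) were used separately. 1 marker list is not reported here.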

Additional observations from a re-analysis of the deposited data

How the results depend on the processing

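With 3 samples per age, low genes and moderate differences are limited by depth and spread. Directions of Cd14, Tlr4, Myd88 and Tlr2 held in all 18 alternatives each and of Tlr5 in all 17. Past the adjusted threshold were 0 of the genes by edgeR and 1 by DESeq2, and 4 at an unadjusted p below 0.05 without a fold limit. Over all genes, edgeR called 0, DESeq2 472, voom with quality weights 15, the leukocyte term 16, no filter 4, the cluster term 2, log2(FPKM + 0.1) 1 and the fit without the 131-week sample 1. Genes with an unadjusted p below 0.05 numbered 1847, against 892 with the leukocyte term, 1112 without the 136-week sample and 1114 without young sample 2.

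The count of genes without overlap (3) became 6 within the clusters and 3 to 5 with each sample left out, 5 without the 127-week sample. The median of 0.70 became 0.26 with quality weights, 0.22 when 0.5 CPM was required in 3 samples, 0.34 on log2(FPKM + 0.1), 0.13 on log2(FPKM + 1), -0.16 with the leukocyte term, and 0.15 (without the 136-week sample) to 0.83 with each sample left out. Fewer genes were tested under the stricter filter and without the 136-week sample, and the pseudocount shrinks low genes by construction. For the others the cause was not tested. Tlr6 changed sign with quality weights (0.010) and ran from -0.53 to 0.070 with each sample left out, at 0.070 without young sample 3 and 0.014 without the 131-week sample. Tlr3 ran from -0.19 to 0.28 there. With the leukocyte term, Tlr1, Tlr3 and Tlr7 were at -2.61, -0.25 and -1.17. No paired analysis was possible because the ages share no replicate numbers in the labels.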

Other observations

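Among 12 pattern-recognition receptors outside the Toll-like family, 10 were higher in aged ECs and 2 lower (median 0.41 on the log2 scale). Of all genes tested, 51.1% were higher. At an unadjusted p below 0.05, 4 were higher (8.32% of all genes were), and 0 passed edgeR's adjusted threshold. Mb21d1, which encodes the cytosolic DNA sensor cGAS, had CPM values of 10.3, 8.44 and 18.4 in young and 23.2, 25.6 and 44.4 in the 127-, 131- and 136-week samples, all aged above all young (log2 fold change 1.32 ± 0.37, SE, adjusted p = 0.256 by edgeR's quasi-likelihood test). It is in the study's own tables of these samples. Nod2, a sensor of bacterial muramyl dipeptide, did not overlap between the ages either (log2 fold change 1.27 ± 0.49, SE, adjusted p = 0.368). Zbp1, a sensor of Z-form nucleic acids, and Clec7a, the beta-glucan receptor of myeloid cells, were higher by 2.21 and 2.52 with overlap, and both were lower in the 131-week sample than in at least 1 young sample. Tmem173, which encodes STING downstream of cGAS, had a log2 fold change of 0.37 with overlapping ages.

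Of the 4 other mouse Toll-like receptors, Tlr8, Tlr12 and Tlr13 were tested and had log2 fold changes of 0.59, 0.41 and 1.62, all with overlapping ages, and Tlr11 did not reach 0.5 CPM. The lowest Tlr13 value was in the 131-week sample (0.117 CPM) and the highest in the 136-week sample (2.80 CPM), as for the summed Kupffer cell markers.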
